A study of Macaca fascicularis and Mus musculus with 492 samples.

Results

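The visceral endoderm and epiblast of the mouse embryo at embryonic day 5.5 (E5.5) were compared in 25 single cells, 9 of them assigned to visceral endoderm and 16 to epiblast, out of 71 mouse cells and 492 mouse and monkey cells in all. The labels do not name the tissue of a cell, so the cells were selected on measured values: a cell was called visceral endoderm when its mean log2(RPM + 1) of Amn, Apoa1 and Cubn was above that of Pou5f1, Utf1 and Tdgf1, and epiblast when it was below. RPM scales the reads of a gene to the total of its cell, so it gives shares of a cell's reads and not amounts. The embryos were C57BL/6, taken at E5.5 with the extraembryonic ectoderm removed by hand, and their epiblast and visceral endoderm were parted by pipetting before dissociation. Cells of E6.5 embryos (24, from the proximal epiblast and the whole visceral endoderm) were classed by the same rule, which gave 5 visceral endoderm and 19 epiblast cells; some of the 19 carried streak genes or lay near the boundary of the rule, as given with the E6.5 results. Embryonic stem cells of the line BVSC R8 in 2i and LIF without feeders (10 cells) and epiblast-like cells (EpiLCs) induced from them with activin A, bFGF and knockout serum replacement (12 cells) gave levels in culture. RNA was read by SC3-seq, a single-cell method whose reads lie near the end of each transcript, so values do not scale with gene length.

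The visceral endoderm is the polarised epithelium that surrounds the epiblast of the egg cylinder. It takes up maternal nutrients by endocytosis, secretes lipoproteins and carrier proteins ahead of the liver, and at its anterior side releases antagonists of NODAL and WNT that pattern the epiblast. The epiblast is the pluripotent layer that forms the embryo proper, and at this stage it moves out of naive pluripotency under FGF and NODAL signalling.

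The E5.5 cells had 2394853 to 4150401 reads in visceral endoderm and 2548990 to 4158773 in epiblast, with 10592 to 11734 genes detected in visceral endoderm and 10085 to 12246 in epiblast. A gene was detected when it was above 0.01 RPM. The labels name no embryos, so the 25 cells are 1 sample, and since the classes were chosen from these cells, every difference at E5.5 below is a description with no test. A level is the mean log2(RPM + 1) over the cells of a class, and a difference is the visceral endoderm level minus the epiblast level. Because 1 RPM was added before the log, a difference against a class near 0 depends on that constant.

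The rule parted the cells widely. The visceral endoderm marker mean was 9.55 to 11.5 in visceral endoderm cells and 0.384 to 1.78 in epiblast cells, and the epiblast marker mean was 2.84 to 7.09 in visceral endoderm cells and 8.13 to 8.93 in epiblast cells. The cell closest to the boundary, visceral endoderm cell 1, had a visceral endoderm marker mean of 9.55 and an epiblast marker mean of 7.09, which are 2.47 apart. The next closest visceral endoderm cell had means 6.72 apart, and the closest epiblast cell had means 6.60 apart the other way (-6.60). An assignment by 8 other genes (Dab2, Ttr, Rbp4 and Trf against Sox2, Dnmt3b, Fgf5 and Pou3f1) placed 25 of 25 cells in the same class. This is no independent check of the classes, since Dab2, Ttr and Rbp4 are among the largest differences of these same cells. Fgf5, on the epiblast side of that assignment, had the higher level in visceral endoderm (difference 1.58).

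**Figure D1:**
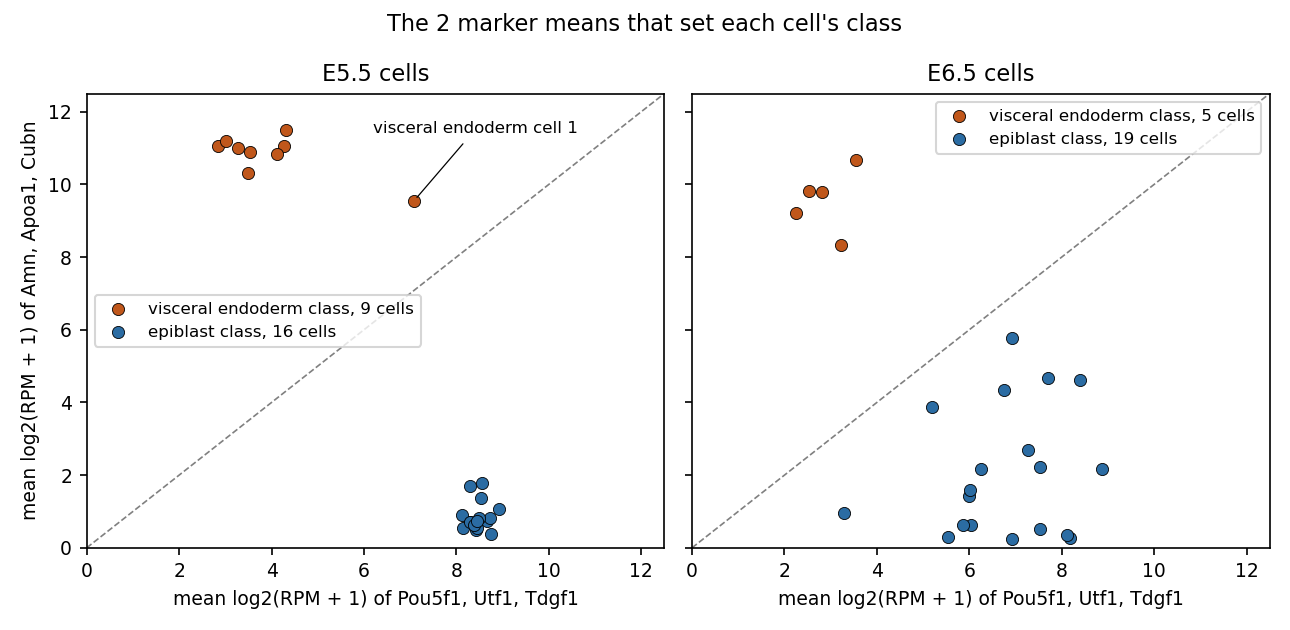
Each point is 1 cell, with the mean log2(RPM + 1) of the 3 epiblast rule genes on the x axis and that of the 3 visceral endoderm rule genes on the y axis, at E5.5 (left) and E6.5 (right); the dashed line marks equal means. At E5.5 the 16 epiblast cells form 1 tight group and 8 of 9 visceral endoderm cells another. Visceral endoderm cell 1 is high on both axes, at 7.09 (x) and 9.55 (y).

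The genes of the rule had these values, given with their places in mm10 (GENCODE M21). Cubn, the multi-ligand receptor cubilin (chr2:13276338-13491813, minus strand), had 1103 to 4792 RPM (median 3249) in visceral endoderm cells, against 0.666 to 5.75 RPM (median 1.37) in epiblast cells. Amn, which carries cubilin to the cell surface (chr12:111271095-111276426, plus strand), had 463 to 1378 RPM (median 937) in visceral endoderm cells and 0 to 7.88 RPM (median 0.137) in epiblast cells. Apoa1, the main apolipoprotein of high-density lipoprotein (chr9:46228580-46230466, plus strand), had 828.8 to 3635 RPM (median 2524) in visceral endoderm cells and 0 to 3.01 RPM (median 0.861) in epiblast cells. All 9 visceral endoderm cells lay above every epiblast cell for these 3 genes.

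Of the epiblast rule genes, Tdgf1, the NODAL co-receptor Cripto (chr9:110939603-110946158, minus strand), had 0.367 to 133 RPM (median 0.998) in visceral endoderm cells and 315 to 789.7 RPM (median 519.6) in epiblast cells. Pou5f1, the pluripotency factor OCT4 (chr17:35506018-35510772, plus strand), had 0 to 52.6 RPM (median 0.482) in visceral endoderm cells and 108 to 253 RPM (median 160.2) in epiblast cells. The highest visceral endoderm value of both genes came from visceral endoderm cell 1, with 133 RPM of Tdgf1 and 52.6 RPM of Pou5f1. Utf1, a chromatin-associated factor of pluripotent cells (chr7:139943789-139945112, plus strand), did not part the classes, with 241 to 455 RPM (median 349) in visceral endoderm cells against 415 to 784 RPM (median 502) in epiblast cells, and the cells of the classes overlapped.

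Visceral endoderm cell 1 stood apart from the other 8. It had 3403583 reads and 11734 genes detected, against 10592 to 11535 genes in the others. Beside visceral endoderm genes at a high level it held epiblast genes: Slc7a3, a cationic amino acid transporter, at 277 RPM, against at most 2.56 RPM in the other 8, and Fgf4 at 72.6 RPM, against 0 RPM in the other 8. Of 460 genes that were lower in the other 8 cells than in epiblast by at least 2 and had an epiblast level of at least 4, it exceeded all of the other 8 cells in 286 (62.2%). These genes were chosen for low levels in the other 8, which favours a higher value in the cell left out, so the share is a description only. Across the 964 genes with the opposite pattern, chosen in the same way, its level was below the mean of the other 8 by a median difference of -0.88. Doublets were not searched for with a caller, and the origin of this mixed profile was not tested. Its correlation with the other visceral endoderm cells over the considered genes had a median of 0.734, and with epiblast cells 0.697, against a median of 0.786 among the other 8 and 0.551 between those 8 and epiblast cells (cells share the same genes and platform, and these are descriptions).

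Across the transcriptome the classes differed broadly. Of 26219 genes, 10101 had a level of at least 2 in at least 1 class and were considered. A gene under that level in 1 class could enter only through the other class. The filter itself tilts counts of such genes, in lists too, towards that other class. A gene was called when the difference was at least 2, which is 4-fold on this scale. By this rule 1189 genes (11.8%) were higher in visceral endoderm and 723 (7.16%) were lower, and 3345 (33.1%) differed by less than 0.5. Every list count at E5.5 below is to be read beside the shares of 11.8% higher and 7.16% lower. The median difference over all considered genes was -0.00101. By the second rule, every visceral endoderm cell was above every epiblast cell in 499 genes (4.94%) and below in 148 (1.47%). Without visceral endoderm cell 1 those counts were 640 and 398.

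The 15 largest positive differences among genes whose classes did not overlap, leaving out the rule genes, included secreted carriers, lipid transport proteins and the endocytic adaptor Dab2. Spink3, a serine protease inhibitor, had 1206 to 3806 RPM (median 2213) in visceral endoderm cells, against 0 to 1.86 RPM (median 0.341) in epiblast cells. Ttr, transthyretin, which carries thyroid hormone and the retinol-binding protein, had 1464 to 3922 RPM (median 1719) in visceral endoderm cells and 0 to 3.08 RPM (median 1.10) in epiblast cells. Each of the 9 visceral endoderm cells had at least 1206 RPM of both, and each of the 16 epiblast cells at most 3.08 RPM. The difference was 10.39 for Spink3 and 10.07 for Ttr.

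Others of these 15 were Ctsh, a lysosomal cysteine protease (difference 9.42), Srgn, the proteoglycan serglycin (9.39), Apom (9.29) and Apoa4 (9.04), both lipoprotein components, and Pga5, a pepsinogen (8.94). Cited1, a transcriptional co-regulator, differed by 8.82, Cyp26a1, which degrades retinoic acid, by 8.77, and Clic6, a chloride channel protein, by 8.53. Mttp, which loads lipid onto apolipoprotein B (8.14), Dab2 (8.12), Rbp4 (8.07) and Apoc2, a cofactor of lipoprotein lipase (8.07), were among them too. Clic6 had 237 to 567 RPM (median 475) in visceral endoderm cells and 0 to 0.657 RPM (median 0) in epiblast cells. Of the 15, 4 were above 10 RPM in any epiblast cell: Dab2 in 6 of 16, Cited1 in 2, and Cyp26a1 and Apoc2 in 1 each.

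The 15 largest negative differences among genes whose classes did not overlap, again without the rule genes, lay between -6.38 and -4.59. Genes in which visceral endoderm cell 1 overlapped the epiblast cells, such as Slc7a3 (-6.87) and Pou3f1 (-6.18), are outside that set. Pdzd4, a PDZ domain protein, had 0 to 60.5 RPM (median 0.314) in visceral endoderm cells and 104 to 258 RPM (median 159) in epiblast cells. Foxp1, a forkhead transcription factor, had 0 to 16.5 RPM (median 0) in visceral endoderm cells and 35.3 to 221 RPM (median 99.3) in epiblast cells. For both genes the highest visceral endoderm value was that of cell 1. Rragd, a Rag GTPase of amino acid sensing by mTORC1, had 0 to 118 RPM (median 0.378) in visceral endoderm cells and 154 to 371 RPM (median 208) in epiblast cells.

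The interferon-inducible membrane proteins Ifitm3 (-5.88) and Ifitm2 (-5.31) were both among the 15, as were the scaffold of protein kinase A Akap12 (-5.48), the chromatin remodeller Chd9 (-5.44), the transcription factor Bcl11a (-5.19) and the atypical cadherin Fat1 (-5.10). Snurf, an imprinted gene that shares its transcript with Snrpn, so that their reads may not be told apart, differed by -5.53. Nav2 (-5.44), Glipr2 (-5.35), the nucleotide synthesis enzyme Prps1 (-5.28), the potassium channel Kcnk1 (-4.66) and 6330407J23Rik (-4.59) were the rest. Every visceral endoderm cell had under 10 RPM of Chd9, Nav2 and 6330407J23Rik, while the highest epiblast cell had 139 RPM of Chd9, 106 RPM of Nav2 and 73.4 RPM of 6330407J23Rik.

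**Figure D2:**
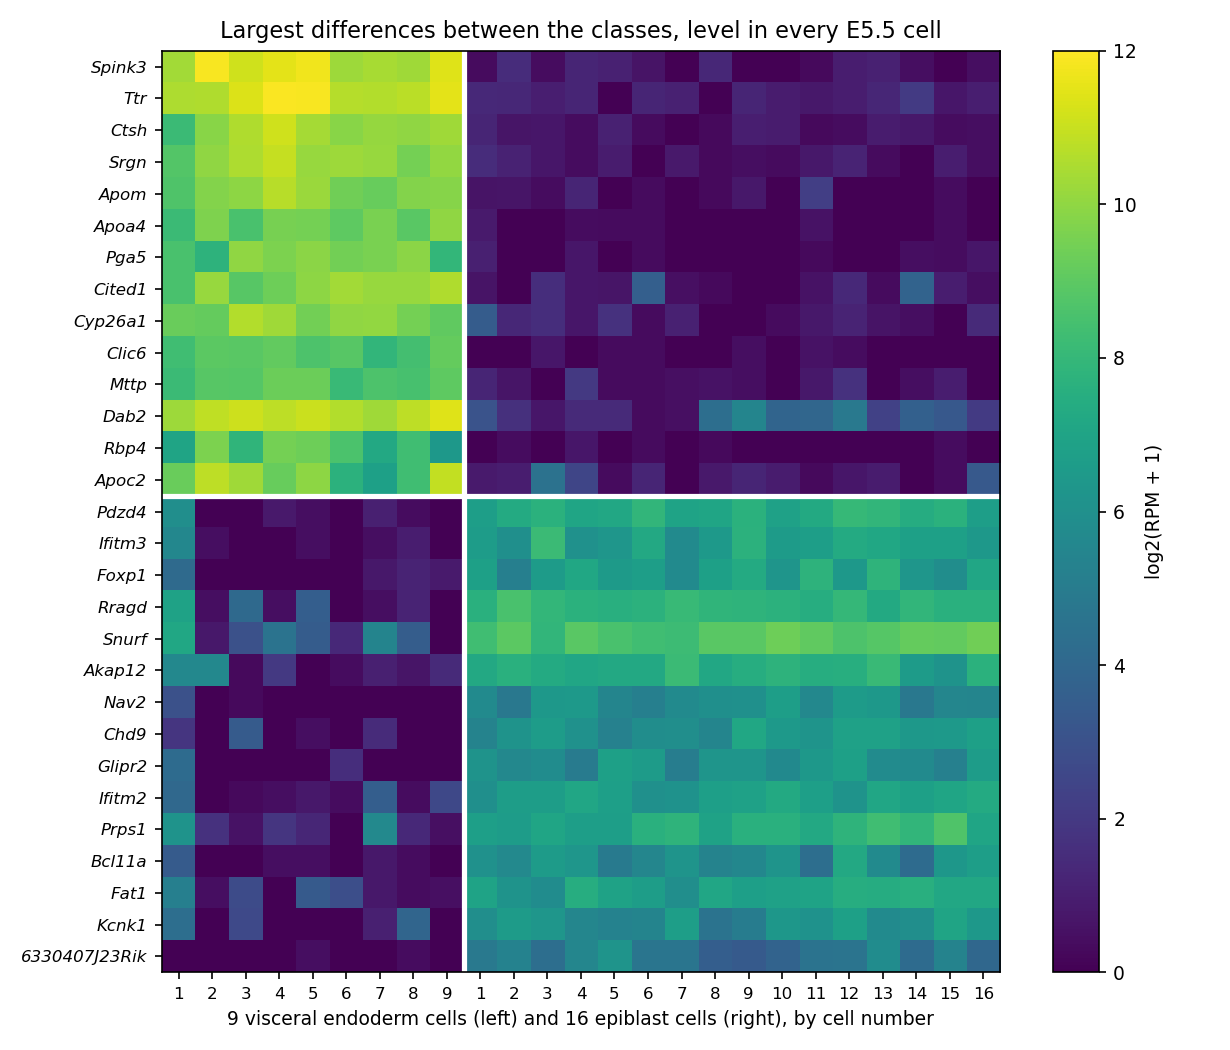
Colour gives log2(RPM + 1) of the named genes with the largest positive differences (top) and the largest negative ones (bottom) in every E5.5 cell, with the 9 visceral endoderm cells left of the white line and the 16 epiblast cells right of it. Visceral endoderm cell 1 has the highest visceral endoderm value in most of the lower rows.

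Endocytic receptors and their partners were mostly higher in visceral endoderm. Of 13 listed, 10 were considered, 8 were higher in visceral endoderm and 0 lower, with a median difference of 4.49, against 11.8% higher and 7.16% lower and a median of -0.00101 over all considered genes; the list holds the rule genes Cubn and Amn, and without them 6 of 8 were higher (median 4.19). Lrp2, megalin, which works with cubilin in uptake, had 876 to 4189 RPM (median 2702) in visceral endoderm cells and 58.7 to 212 RPM (median 95.9) in epiblast cells. The classes did not overlap, but Lrp2 was above 10 RPM in all 16 epiblast cells. Dab2, the adaptor that couples megalin to clathrin, had 1214 to 2736 RPM (median 1813) in visceral endoderm cells and 0.271 to 42.4 RPM (median 5.69) in epiblast cells. Lrpap1, the chaperone of the receptor family, differed by 4.55, and Fcgrt, the neonatal Fc receptor, by 5.60. The high-density lipoprotein receptor Scarb1 differed by 2.72 with overlapping cells. Lrp1, a further receptor of the family, was not called (0.24).

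Apolipoproteins and lipid transport had 12 of 14 considered members higher in visceral endoderm and 0 lower, with a median difference of 4.87; without the rule gene Apoa1, 11 of 13 were higher (median 4.27). Apob, the core protein of very-low-density lipoprotein, had 123 to 405 RPM (median 184) in visceral endoderm cells and 0 to 0.685 RPM (median 0) in epiblast cells. Soat2, which esterifies cholesterol for lipoproteins, had 31.3 to 108 RPM (median 45.8) in visceral endoderm cells and 0 to 4.33 RPM (median 0) in epiblast cells. Both separated the classes without overlap. Their epiblast levels were at most 0.24 (Soat2), under the filter, so both entered through visceral endoderm alone. Apoe, a ligand of lipoprotein receptors, was present in both, at 945 to 3742 RPM (median 2118) in visceral endoderm cells and 47.95 to 337 RPM (median 141) in epiblast cells. Apoc1 (1.77) and Apoa2 (1.25) were the members not called.

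Plasma proteins and carriers were higher in 12 of 12 considered members, with a median difference of 4.98, and 7 of the 19 listed did not reach the level to be considered. The considered members named here had epiblast levels of at most 1.62 (Trf), under the filter. They entered through visceral endoderm alone, so for them a call of higher was nearly given by the filter. Rbp4, the retinol carrier of plasma, had 83.5 to 784 RPM (median 314) in visceral endoderm cells and 0 to 0.666 RPM (median 0) in epiblast cells. Trf, transferrin, had 91.8 to 929.7 RPM (median 373) in visceral endoderm cells and 0 to 20.7 RPM (median 0.489) in epiblast cells. Afp, alpha-fetoprotein, a classical marker of the visceral endoderm over the embryo proper, had 5.43 to 178 RPM (median 34.2) in visceral endoderm cells and 0 to 1.74 RPM (median 0.256) in epiblast cells, and 7 of 9 visceral endoderm cells were above 10 RPM. Coagulation genes varied among the visceral endoderm cells: Fgb, a fibrinogen chain, had 9.42 to 110.3 RPM (median 31.4) there, and F5, coagulation factor V, had 0 to 79.3 RPM (median 30.8). Alb, serum albumin, was listed at 0 in every cell of both classes.

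Lysosomal genes were higher as a group, with 14 of 22 considered members called higher, 0 lower and a median difference of 2.59. Ctsl, the cysteine protease cathepsin L, had 2189.6 to 6297 RPM (median 5004) in visceral endoderm cells and 78.8 to 490.1 RPM (median 186) in epiblast cells. Lgmn, the endopeptidase legumain, had 664 to 1797 RPM (median 1475) in visceral endoderm cells and 0.812 to 17.7 RPM (median 6.91) in epiblast cells. Ctsc (5.85), Ctsz (4.94) and Ctsb (4.71), further cathepsins, also separated the classes fully. Members present in both classes differed less, such as Lamp1, a membrane protein of lysosomes (2.57), and Ctsd, the aspartic protease cathepsin D, which was not called (1.42).

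Slc40a1, the iron exporter ferroportin, had 135 to 504 RPM (median 341) in visceral endoderm cells and 0 to 32.5 RPM (median 3.71) in epiblast cells, and Slc11a2, an iron importer, differed by 3.05. Tfrc, the transferrin receptor, was lower in visceral endoderm, at 0 to 152 RPM (median 13.3) there against 52.2 to 367 RPM (median 165) in epiblast cells, and Heph, an iron oxidase, was lower too (-2.90). In all, 3 of 9 considered iron genes were higher and 2 lower, beside 11.8% and 7.16% over all considered genes.

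Of 9 considered retinoid genes, 4 were higher in visceral endoderm and 2 lower, beside 11.8% and 7.16% over all considered genes. Cyp26a1 had 536 to 1581 RPM (median 725) in visceral endoderm cells and 0 to 10.1 RPM (median 0.694) in epiblast cells, and Rdh10, which makes retinaldehyde, had 54.2 to 238 RPM (median 132) in visceral endoderm cells and 0 to 44.2 RPM (median 1.43) in epiblast cells. The intracellular binding protein Crabp2 (-4.91) and the receptor Rarg (-3.39) were lower in visceral endoderm.

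Of 20 considered genes of glycolysis and glucose transport, 3 were higher and 2 lower, shares near the 11.8% and 7.16% over all considered genes. The 3 were membrane transporters. Slc2a3, the glucose transporter GLUT3, had 556 to 1972 RPM (median 1242) in visceral endoderm cells and 4.87 to 116 RPM (median 32.04) in epiblast cells. Slc16a1, the monocarboxylate transporter MCT1, had 667 to 1681 RPM (median 1362) in visceral endoderm cells and 13.3 to 193 RPM (median 64.1) in epiblast cells. The related transporter Slc16a3 (MCT4) ran the other way, at 22.7 to 192 RPM (median 48.01) in visceral endoderm cells and 136 to 432 RPM (median 266) in epiblast cells. Ldhb, the lactate dehydrogenase B subunit, was also lower (-3.68), while Ldha, the A subunit, was at similar levels (0.00). None of 18 respiratory chain genes was called, with a median difference of -0.02. Fatty acid and cholesterol genes had 3 of 14 higher, among them the mitochondrial dehydrogenase Acadl (2.43) and the regulator Srebf1 (2.31).

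Of 17 considered epithelial and brush border genes, 11 were higher in visceral endoderm and 2 lower (median 2.25); the list holds the rule gene Cubn, and without it 10 of 16 were higher (median 2.23). Vil1, the microvillar protein villin, had 61.99 to 210.4 RPM (median 135) in visceral endoderm cells and 0 to 0.392 RPM (median 0) in epiblast cells, and Pdzk1, an apical scaffold, had 240.3 to 661 RPM (median 530.2) in visceral endoderm cells and 0 to 17.2 RPM (median 0.370) in epiblast cells. The keratins Krt8 (5.28) and Krt18 (3.43), Podxl (2.92) and the cadherin Cdh2 (4.26) followed, and the intermediate filament gene Vim (-2.69) and the claudin Cldn4 (-2.75) were lower. The adhesion genes Cdh1 (0.26) and Epcam (-0.82) were not called.

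Of 15 considered basement membrane genes, 7 were higher and 2 lower, beside 11.8% and 7.16% over all considered genes. Col4a1, a type IV collagen chain, had 336 to 827 RPM (median 661) in visceral endoderm cells and 0 to 18.1 RPM (median 6.36) in epiblast cells. Its partner chain Col4a2 had 168 to 546 RPM (median 405) in visceral endoderm cells and 0 to 15.6 RPM (median 0.280) in epiblast cells, and neither gene overlapped between the classes. The linker nidogen Nid1 (5.77) and the laminin chains Lama1 (4.87) and Lamc1 (3.24) were higher, as was the collagen-binding protein Sparc (3.40). Col18a1, another basement membrane collagen (-2.47), and fibronectin, Fn1 (-2.27), were lower in visceral endoderm.

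Endoderm transcription factors had 13 of 16 considered members higher in visceral endoderm and 0 lower, with a median difference of 5.25. Over all considered genes 11.8% were higher and 7.16% lower. The called members named here had epiblast levels of at most 0.43 (Sox7), under the filter. They entered through visceral endoderm alone, so for them a call of higher was nearly given by the filter. Xbp1, with an epiblast level of 4.39, was not called (1.84). Gata4 had 175 to 414 RPM (median 345) in visceral endoderm cells and 0 to 1.27 RPM (median 0.247) in epiblast cells. Hnf4a, a nuclear receptor of visceral endoderm and liver, had 137 to 539 RPM (median 264) in visceral endoderm cells and 0 to 1.14 RPM (median 0) in epiblast cells. Gata6, needed to form the primitive endoderm, had 75.2 to 210.5 RPM (median 172) in visceral endoderm cells and 0 to 0.333 RPM (median 0) in epiblast cells. None of the 3 exceeded 1.27 RPM in any epiblast cell. Foxa2 (6.25) and Sox7 (5.53) were next. Sox17 was uneven, at 0 to 98.1 RPM (median 31.7) in visceral endoderm cells and 0 to 5.53 RPM (median 0) in epiblast cells.

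Markers of other tissues were read beside these genes. Of 12 parietal endoderm markers, 8 were considered, 5 were higher in visceral endoderm (Srgn, Pga5, Col4a1, the parathyroid hormone receptor Pth1r and Sparc) and 1, Vim, was lower; the summed level was 1952 to 5290.1 RPM in visceral endoderm cells and 126 to 505 RPM in epiblast cells. The median difference of this list was 4.72, and Pth1r had 60.8 to 196 RPM (median 131) in visceral endoderm cells. The parietal genes not considered reached at most 0.367 RPM (Thbd), 7.47 RPM (Plat), 9.65 RPM (Snai1) and 9.64 RPM (Stra6) in visceral endoderm cells. Of 15 extraembryonic ectoderm and trophoblast markers, 6 were considered, 3 were higher and 2 lower, with sums of 294 to 734 RPM in visceral endoderm cells and 5.88 to 319.6 RPM in epiblast cells. The 3 higher members were Eomes (5.10), which with 270.3 to 688 RPM (median 479) in visceral endoderm cells made up much of that sum, 1600029D21Rik (3.50) and Tead4 (3.25). Elf5 and Tpbpa, markers of the same tissues, were at 0 in all visceral endoderm cells. In epiblast cells Tpbpa was at 0 too, while Elf5 reached 29.2 RPM and was above 10 RPM in 3 of 16. The 2 lower members were Ascl2 (-2.53), above 10 RPM in 7 of 16 epiblast cells, and Sorl1 (-2.07). The part of these tissues in the differences was not tested. Of 14 maternal, blood and immune markers, 1 was considered, Hoxa10 (2.60), with sums of 0 to 99.4 RPM in visceral endoderm cells and 0 to 26.6 RPM in epiblast cells.

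Genes usually read as primitive streak or mesoderm markers were partly present in visceral endoderm cells. Of 12 listed, 6 were considered and all 6 were higher in visceral endoderm, with sums over the list of 415 to 1031 RPM in visceral endoderm cells and 4.94 to 89.05 RPM in epiblast cells. Mixl1, Gsc, Evx1, Sp5 and Fgf8 had epiblast levels of at most 1.60 and entered through visceral endoderm alone. Only Eomes (epiblast level 3.76) passed the filter in epiblast too, so the filter nearly gave the direction of the others. Eomes, a T-box factor, had 270.3 to 688 RPM (median 479) in visceral endoderm cells and 0 to 66.6 RPM (median 20.4) in epiblast cells, and Mixl1, a homeobox factor, had 19.3 to 133 RPM (median 64.8) in visceral endoderm cells and 0 to 1.64 RPM (median 0) in epiblast cells. Neither overlapped between classes. Evx1 (3.52) and the WNT target Sp5 (3.21) were also higher. The streak gene T and the mesoderm gene Mesp1 stayed at or under 0.377 RPM in every cell of both classes. Of 5 considered germ cell markers 0 were called.

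**Figure D3:**
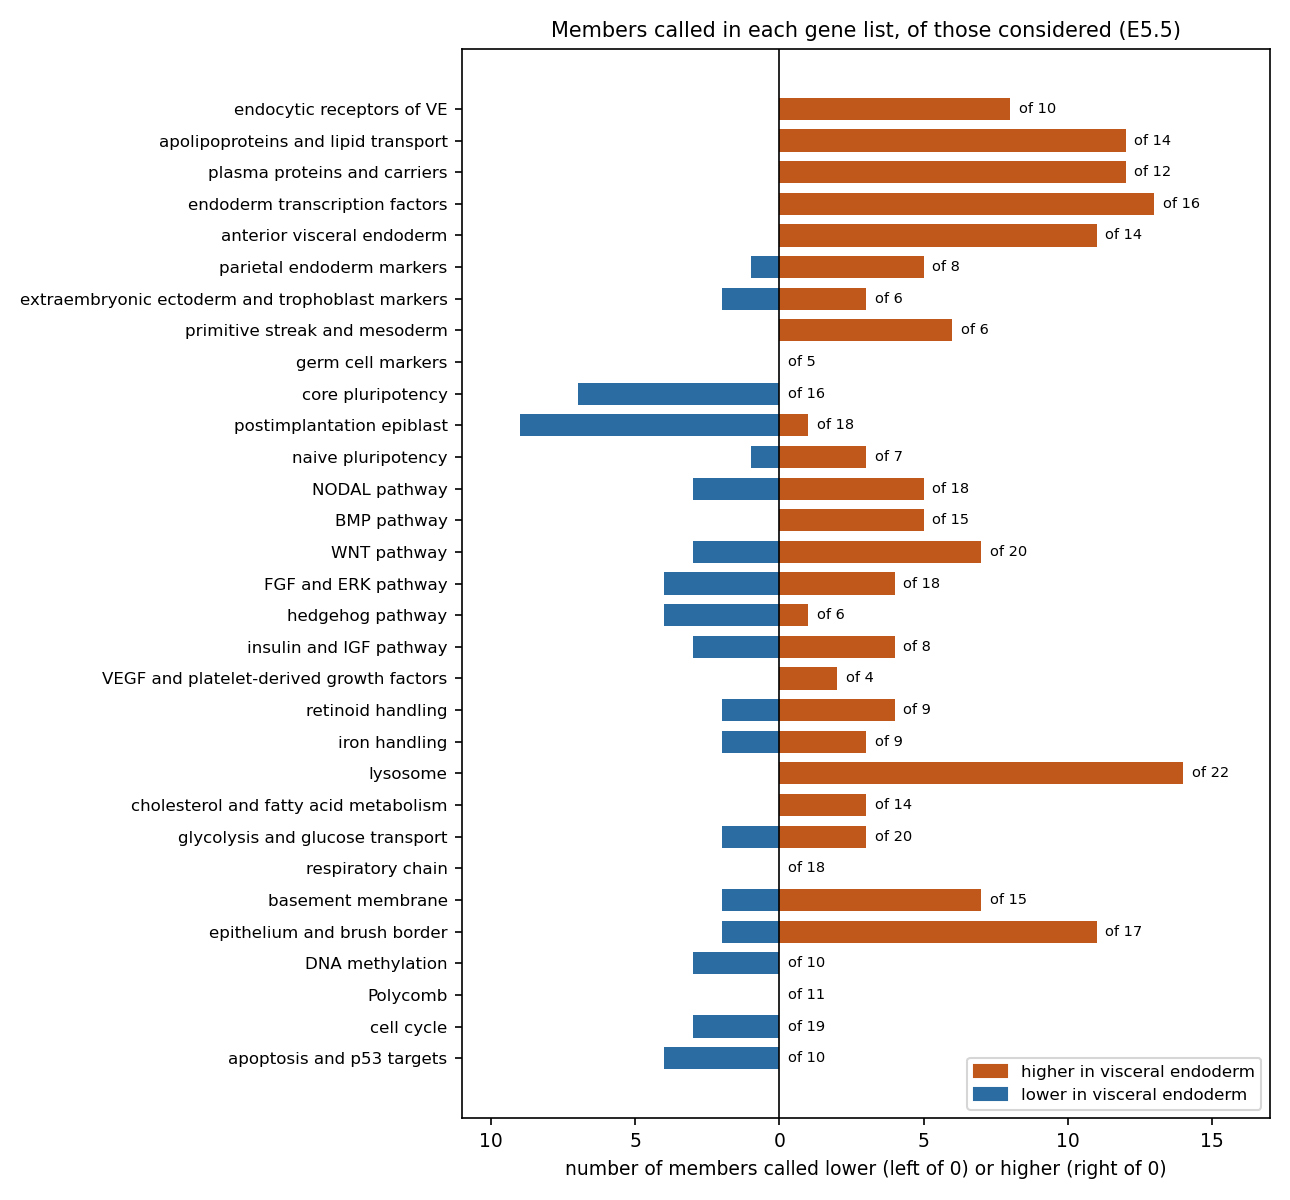
For each list with at least 4 considered members, the bar right of 0 counts members called higher in visceral endoderm and the bar left of 0 those called lower, each by a difference of at least 2; the text gives the number considered. Endocytic, lipid, plasma protein and endoderm lists extend only to the right, and the core and postimplantation pluripotency lists mainly to the left. The counts include the rule genes.

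On the epiblast side, 7 of 16 core pluripotency genes were lower in visceral endoderm and 0 higher (median -1.48); without the 3 rule genes, 5 of 13 were lower. Sox2, the partner of OCT4, had 0.241 to 46.7 RPM (median 0.835) in visceral endoderm cells and 23.9 to 357 RPM (median 105) in epiblast cells. The highest visceral endoderm value, 46.7 RPM, was that of cell 1, and the next was 9.17 RPM, below every epiblast cell. Nanog had at most 0.367 RPM in visceral endoderm cells and 0 to 60.6 RPM (median 8.94) in epiblast cells, of which 8 of 16 were above 10 RPM. Lin28b (-2.99), Dppa4 (-3.17) and the growth factor Gdf3 (-2.38) were lower in visceral endoderm.

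Several genes used as pluripotency markers were shared. Sall4, a zinc finger factor, had 224 to 518 RPM (median 342) in visceral endoderm cells and 229.5 to 516 RPM (median 302) in epiblast cells. Lin28a, an RNA-binding protein that blocks let-7 maturation, had 86.3 to 182 RPM (median 150.4) in visceral endoderm cells and 80.4 to 145 RPM (median 104) in epiblast cells. The classes overlapped for both, and neither was called.

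Of 18 considered postimplantation epiblast genes, 9 were lower in visceral endoderm and 1, Cdh2, was higher. Slc7a3 had 0 to 277 RPM (median 0.734) in visceral endoderm cells and 180.2 to 703 RPM (median 351) in epiblast cells. Pou3f1, the POU factor OCT6, had 0 to 73.2 RPM (median 0.757) in visceral endoderm cells and 42.7 to 459 RPM (median 203) in epiblast cells. Without cell 1 the highest visceral endoderm value was 2.56 RPM for Slc7a3 and 2.19 RPM for Pou3f1. Sox11 (-4.50), Grhl2 (-4.33), Lef1 (-3.76) and Sall2 (-3.71) were the next, all transcription factors. Otx2, a homeobox factor that acts in both tissues, had 26.8 to 316 RPM (median 227) in visceral endoderm cells and 69.1 to 339 RPM (median 155) in epiblast cells. Fgf5, commonly taken as an epiblast marker, was present in both, at 80.2 to 394 RPM (median 308) in visceral endoderm cells and 17.4 to 233 RPM (median 93.9) in epiblast cells.

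Naive pluripotency genes included 3 that were higher in visceral endoderm, Tbx3 (5.14), Tfcp2l1 (4.80) and Klf5 (2.61), all transcription factors, of 7 considered. Tbx3 had 15.8 to 258 RPM (median 28.3) in visceral endoderm cells and 0 to 0.681 RPM (median 0) in epiblast cells. The list's one member lower in visceral endoderm was Fgf4 (-5.25).

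DNA methylation genes had 3 of 10 considered members lower in visceral endoderm and 0 higher. Over all considered genes 7.16% were lower and 11.8% higher. Dnmt3l, the cofactor of the de novo enzymes, had 0.734 to 141 RPM (median 22.6) in visceral endoderm cells and 97.7 to 787 RPM (median 344) in epiblast cells. Dnmt3a had 37.8 to 309 RPM (median 118) in visceral endoderm cells and 328 to 766 RPM (median 487) in epiblast cells. Dnmt3b missed the threshold at -1.93 although the classes did not overlap, with 790.02 to 2902 RPM (median 967) in visceral endoderm cells and 3245 to 5276 RPM (median 3947) in epiblast cells. The oxidase Tet1 was lower (-2.12), and the maintenance enzyme Dnmt1 was not called (-0.45). None of 11 Polycomb genes was called (median -0.34).

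Cell cycle genes had 3 of 19 considered members lower and 0 higher, beside 7.16% lower and 11.8% higher over all considered genes. Myc had 0 to 8.23 RPM (median 0) in visceral endoderm cells and 7.58 to 71.9 RPM (median 36.2) in epiblast cells, and Ccnd1, cyclin D1, had 0 to 44.1 RPM (median 1.46) in visceral endoderm cells and 13.3 to 191 RPM (median 97.1) in epiblast cells. Cdkn1c, an imprinted inhibitor of cyclin-dependent kinases, was lower as well (-3.47). Proliferation genes such as Mki67 (0.23) and Cdk1 (0.37) were not called. Apoptosis genes had 4 of 10 lower and 0 higher, among them the BH3-only genes Bcl2l11 (-3.77), Bbc3 (-2.45) and Pmaip1 (-2.29). Of 3 considered dissociation stress genes, Junb was higher in visceral endoderm (3.50).

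In the NODAL pathway, 5 of 18 considered members were higher in visceral endoderm and 3 lower. The list holds the rule gene Tdgf1, and without it 5 of 17 were higher and 2 lower. The ligand Nodal was present in both classes, at 46.01 to 121 RPM (median 91.98) in visceral endoderm cells and 12.05 to 120.2 RPM (median 31.4) in epiblast cells, and was not called. The co-receptors divided: Tdgf1 belonged to the epiblast as a rule gene, and its relative Cfc1 had 0.377 to 110.1 RPM (median 31.3) in visceral endoderm cells and 0 to 10.9 RPM (median 0) in epiblast cells. The antagonist Lefty1 had 0 to 311 RPM (median 69.2) in visceral endoderm cells and 0 to 58.1 RPM (median 0.430) in epiblast cells. The receptor Acvr2b (-2.23) and the ligand Gdf3 were lower in visceral endoderm, and the proprotein convertase Furin (2.38), which cleaves the NODAL precursor, was higher.

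In the FGF pathway 4 of 18 considered members were higher and 4 lower, beside 11.8% and 7.16% over all considered genes. The ligand Fgf4 had 0 to 72.6 RPM (median 0) in visceral endoderm cells and 6.36 to 224 RPM (median 68.1) in epiblast cells, and the receptor Fgfr1 had 0 to 54.1 RPM (median 0.835) in visceral endoderm cells and 21.6 to 109.7 RPM (median 45.3) in epiblast cells. In both genes the highest visceral endoderm value was that of cell 1. The ligand Fgf10 was in every visceral endoderm cell, at 71.4 to 237 RPM (median 166), and at 0 to 2.28 RPM (median 0.652) in epiblast cells. Fgf8 (3.79) and the receptors Fgfr4 (3.95) and Fgfr3 (2.36) were higher in visceral endoderm, and Fgf15 (-3.18) and the ERK phosphatase Dusp6 (-2.81) were lower.

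In the WNT pathway 7 of 20 considered members were higher and 3 lower. The secreted antagonists Sfrp5 and Dkk1 were higher. Sfrp5 had 53.9 to 375 RPM (median 161) in visceral endoderm cells and 0 to 2.998 RPM (median 0) in epiblast cells, and Dkk1 had 13.2 to 320.1 RPM (median 99.99) in visceral endoderm cells and 0 to 1.10 RPM (median 0.143) in epiblast cells. Porcn, which acylates WNT ligands, differed by 5.90, and the receptors Fzd5 (3.10) and Fzd8 (2.03) were higher; Fzd8 was at 1.97 and not called without visceral endoderm cell 1. The nuclear effectors Lef1 (-3.76) and Tcf7 (-2.42) and the antagonist Sfrp2 (-3.21) were lower in visceral endoderm, while its relative Sfrp1 was higher (2.64).

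In the BMP pathway 5 of 15 considered members were higher and 0 lower. The ligand Bmp2 had 0.377 to 185 RPM (median 13.4) in visceral endoderm cells and 0 to 0.289 RPM (median 0) in epiblast cells, and the antagonist Nog had 3.39 to 81.7 RPM (median 45.2) in visceral endoderm cells and 0 to 11.04 RPM (median 0) in epiblast cells. The targets Msx2 (4.89) and Id1 (3.96) and the effector Smad9 (2.55) were higher.

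The hedgehog ligand Ihh was detected in visceral endoderm cells alone among these 25, at 2.41 to 46.9 RPM (median 10.3), against 0 RPM in all 16 epiblast cells. The receptor Ptch1 had 0.314 to 74.3 RPM (median 23.3) in visceral endoderm cells and 10.2 to 896 RPM (median 90.7) in epiblast cells, and the transducer Smo (-2.95) and the transcription factor Gli3 (-2.96) were lower in visceral endoderm. Of 6 considered hedgehog genes 1 was higher and 4 lower. In the insulin and IGF list 4 of 8 considered members were higher and 3 lower: the ligand Igf2 had 36.1 to 217 RPM (median 117) in visceral endoderm cells and 0 to 114 RPM (median 2.46) in epiblast cells, and the receptor Igf1r had 0 to 39.96 RPM (median 1.88) in visceral endoderm cells and 2.72 to 123 RPM (median 33.6) in epiblast cells. The binding proteins took opposite sides, with Igfbp4 higher (6.02) and Igfbp2 lower (-4.97). Pdgfra, a receptor of platelet-derived growth factor, had 2.33 to 157 RPM (median 59.6) in visceral endoderm cells and 0 to 0.953 RPM (median 0) in epiblast cells, and Nrp1, a co-receptor of VEGF, was at 0 RPM in all epiblast cells and at 0 to 67.3 RPM (median 29.6) in visceral endoderm cells.

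**Figure D4:**
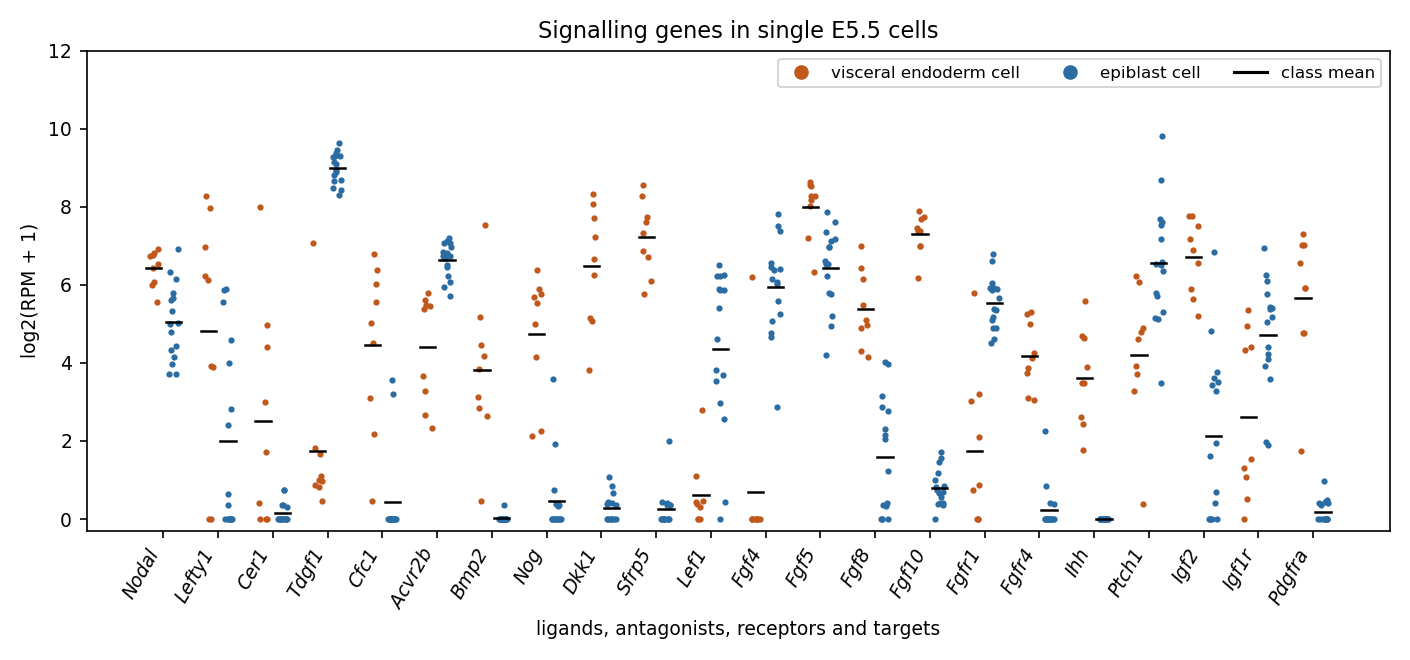
Each point is the log2(RPM + 1) of 1 E5.5 cell, with visceral endoderm cells (9) left of epiblast cells (16) for every gene and a black bar at the class mean. Nodal and Fgf5 are present in both classes, every visceral endoderm cell is above every epiblast cell for Fgf10, Dkk1, Sfrp5 and Ihh, and Fgf4, Fgfr1, Acvr2b and Lef1 have the higher mean in epiblast with overlapping cells.

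The anterior visceral endoderm is the group of cells at the distal tip and then the anterior side that secretes Cer1, Lefty1 and Dkk1. Of 14 considered genes of this list, 11 were higher in visceral endoderm and 0 lower (median 2.96), and 10 were higher without visceral endoderm cell 1. Over all considered genes 11.8% were higher and 7.16% lower. The LIM homeobox factor Lhx1 had 99.1 to 713 RPM (median 402) in visceral endoderm cells and 0 to 1.03 RPM (median 0.633) in epiblast cells, and the homeobox factor Hhex had 30.5 to 91.9 RPM (median 46.6) in visceral endoderm cells and 0 to 12.3 RPM (median 0.474) in epiblast cells. These genes, with Sfrp5 and Dkk1, were above 10 RPM in all 9 visceral endoderm cells. Their epiblast levels were at most 1.23 (Hhex), under the filter, so they entered through visceral endoderm alone.

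Other anterior genes were in some of the visceral endoderm cells and not in others. Cer1, a secreted NODAL antagonist, was at 254 RPM in cell 3, 30.4 RPM in cell 8 and 20.1 RPM in cell 7, and at or under 7.05 RPM in the other 6. Lefty1 was at 311 RPM in cell 3 and 252 RPM in cell 8, and at 0 RPM in cells 2 and 9. Cells 2 and 9 also had the lowest Gsc, a homeobox gene (0.377 RPM in cell 2 and 0.417 RPM in cell 9, against 9.99 to 91.8 RPM in the other 7), and Fzd8 at 0 RPM. Wnt3, a WNT ligand, ran the other way, at 17.7 RPM in cell 2 and 10.9 RPM in cell 9, and at or under 4.11 RPM in the other 7. Dppa3, known for germ cells and naive pluripotency, was at 369 RPM in cell 3 and 324 RPM in cell 8, and at 0 RPM in cells 1, 2 and 9.

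Among genes with a visceral endoderm level of at least 4, the spread among the 9 cells was widest for Dppa3 (SD 3.53 on the log2 scale), the imprinted hydrolase-like gene Mest (SD 3.27) and Lefty1 (SD 3.13). Among 16 epiblast cells it was widest for the non-coding RNA Xist, which silences an X chromosome (SD 3.40), and Foxd3, a forkhead factor (SD 3.18), which was above 10 RPM in 10 of 16 epiblast cells and at most 1.18 RPM in visceral endoderm cells. The labels give neither the embryo nor the sex of these cells.

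**Figure D5:**
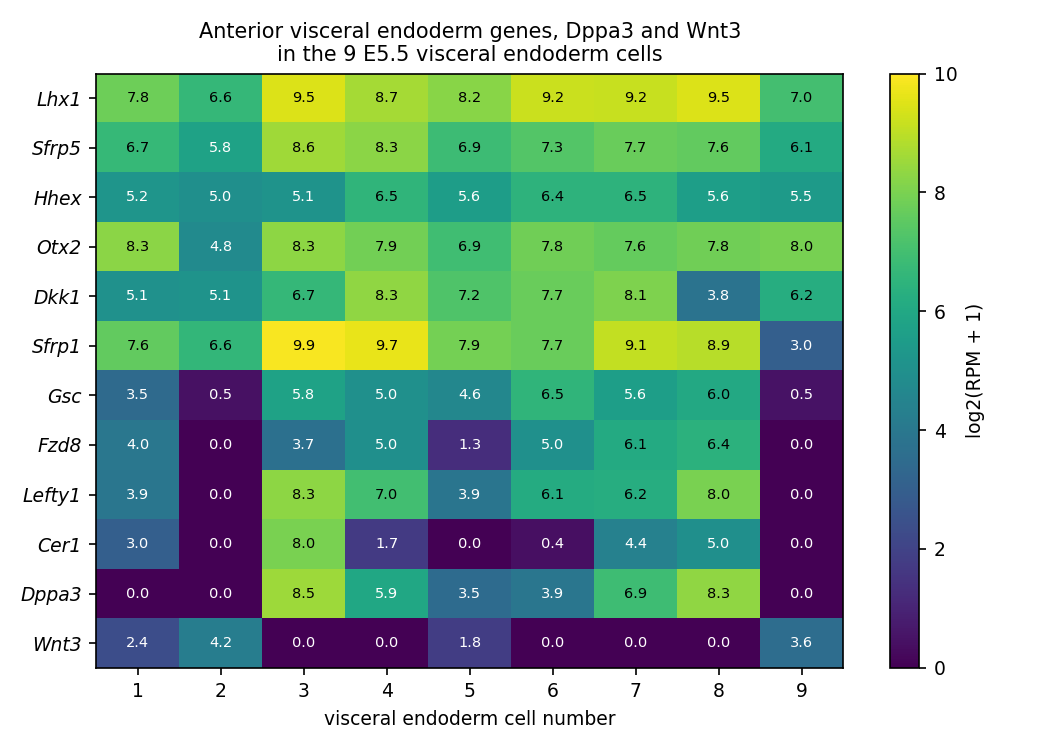
Each field gives log2(RPM + 1) of a gene (row) in 1 of the 9 E5.5 visceral endoderm cells (column). Cells 2 and 9 are at or near 0 for Gsc, Fzd8, Lefty1, Cer1 and Dppa3 and have the highest Wnt3, while Lhx1, Sfrp5 and Hhex are above 10 RPM in all 9.

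The E6.5 cells were a second sample that the E5.5 classes did not use, though the rule used the same 6 genes there. They had 1470966 to 2882250 reads in the 5 visceral endoderm cells and 1004101 to 3203921 in the 19 epiblast cells. At E6.5, 9519 genes were considered, 690 (7.25%) were higher in visceral endoderm and 767 (8.06%) were lower. Of the 1189 genes higher at E5.5, 406 were called higher at E6.5 and 9 lower; the 406 are 34.1% of the E5.5 list and 58.8% of the E6.5 list. Of the 723 genes lower at E5.5, 267 were called lower at E6.5 and 8 higher; the 267 are 36.9% of the E5.5 list and 34.8% of the E6.5 list. Not all of these genes could be called at E6.5, since 935 of the 1189 and 534 of the 723 were considered there. The E6.5 epiblast class was mixed: 12 of its 19 cells had a mean log2(RPM + 1) of T, Mesp1 and Mixl1 under 4, and the others had 4.205 to 9.65. The marker means were at least 3 apart in 15 of the 19, and the closest cell had a visceral endoderm marker mean of 5.79 and an epiblast marker mean of 6.92. With the 12 cells low in streak genes the same-direction counts were 413 and 279, and with the 15 cells farther from the boundary they were 444 and 259.

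Ttr differed by 10.07 at E5.5 and 8.43 at E6.5, Spink3 by 10.39 at E5.5 and 8.10 at E6.5, and Dab2 by 8.12 at E5.5 and 7.35 at E6.5. Afp differed by 4.82 at E5.5 and 7.23 at E6.5, with visceral endoderm levels of 5.15 and 8.14. Lrp2 was close between the classes at E6.5, at 3.31 in visceral endoderm and 2.83 in epiblast. The anterior list had 14 of 15 considered members higher at E6.5 (median 5.42), and Cer1 differed by 8.16. The E6.5 cells carry another title code than the E5.5 cells and came from another dissection. Day, title code and dissection cannot be told apart, and differences between the days were not tested.

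On the epiblast side Pou3f1 differed by -6.18 at E5.5 and -4.37 at E6.5, Slc7a3 by -6.87 at E5.5 and -4.71 at E6.5, and Fgf4 by -5.25 at E5.5 and -3.20 at E6.5. The 15 genes with the largest negative differences among those without overlap were all negative at E6.5, between -5.63 for Prps1 and -1.38 for Kcnk1. Sox3, an X-linked SOX factor, was the one listed gene called in opposite directions, at -2.27 at E5.5 and 2.88 at E6.5. The streak genes Evx1 (-0.67) and Sp5 (-1.57), higher in visceral endoderm at E5.5, were not called at E6.5.

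In the cultured cells Ttr, Apom, Apoa4 and Apoa1 had a level of 0.00 in both 2i/LIF ESCs and EpiLCs. Lrp2 was at 0.45 in ESCs and 6.40 in EpiLCs, beside 6.77 in E5.5 epiblast cells. Those 15 genes were all detected in EpiLCs, from 3.11 for Bcl11a to 8.17 for Akap12, and in ESCs from 0.47 for Bcl11a to 8.67 for Akap12. Pdzd4 was at 3.11 in ESCs, 6.59 in EpiLCs and 7.34 in E5.5 epiblast cells, and Foxp1 at 2.60, 5.57 and 6.65 in the same order. The cultured cells carry another title code than the embryo cells, so culture and that code cannot be told apart.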

How the data were processed

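The authors deposited 1 RPM value for each gene in each cell, from SC3-seq reads. The submitters' processing notes name the build mm10 and the tools Cufflinks 2.2.0, TopHat 1.4.1 and cutadapt 1.3, with no roles. How reads were filtered and given to genes was not given in the sources used. Of the 108 value columns in the mouse table, 37 could not be tied to a sample and stayed unused. The most common value above 0.01 RPM in a cell was read as the worth of 1 read, which gave its depth; in every cell at least 99.6% of the values below 500 reads fell within 0.1 of a whole number. Depth is in reads, since nothing used here speaks of molecular identifiers.

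Levels were means of log2(RPM + 1) over the cells of a class, genes with a class mean of at least 2 were considered, and a difference of at least 2 was called. No test was run, and no p-value is given. The comparison was also run on simulated cells drawn from the epiblast means, with no choice of classes by markers and no mixed cell. That run does not bear on those features of the real cells. Gene places are those of GENCODE M21 (GRCm38, which is mm10). The members and the 34 gene lists were chosen with earlier results of these data known, so no pattern here is independent support for those. Of 490 listed genes, 484 were found in the table, 4 of them by Entrez ID under an older symbol. The text names genes from the 15 largest differences in each direction among genes whose classes did not overlap, up to 6 called members of each list with those against its majority, and members needed to describe it; a few genes that the rule selects are not reported here. Dppa3, Mest and Xist are named for their spread, and other members below the threshold were chosen after their values were seen. Python 3.11.15, pandas 2.3.3 and numpy 2.4.6 were used.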

Additional observations from a re-analysis of the deposited data

Results flagged for a closer look

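Of 35 quantities examined over the 9 visceral endoderm cells of E5.5 (the marker means, reads, genes detected, Lrp2 and the 30 genes of largest difference), 9 had 1 cell far from the other 8 by the gap to the nearest cell over the range, and in all 9 it was visceral endoderm cell 1. The cutoff would mark about 1 in 20 groups of normally distributed values, but that rate does not hold here. The marker means set the classes, and the 30 genes were chosen for large differences in these same cells. Genes such as Nav2 were also near 0 in the other 8 cells. The 9 are not independent, since the same cell is concerned, so the count is a description only.

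Epiblast genes were high in that cell, on the log2(RPM + 1) scale. Its epiblast marker mean was 7.09, against 2.84 to 4.31 in the other 8. Pdzd4 was at 5.94 against at most 1.07, Ifitm3 at 5.55 against at most 0.957, Foxp1 at 4.13 against at most 1.17, and Glipr2 at 4.17 against at most 1.58. Bcl11a was at 3.46 against at most 0.791, and Nav2 at 2.96 against at most 0.311. Of the visceral endoderm genes, 2 were low in it by the same measure: Ctsh was at 8.18 against 9.87 to 11.2, and Lrp2 at 9.78 against 10.9 to 12.0. Others lay within the range of the other 8 cells, such as Spink3 at 1276 RPM against 1206 to 3806 RPM (median 2485) and Clic6 at 322 RPM against 237 to 567 RPM (median 479). No cause was tested.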

How the results depend on the processing

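The number of genes higher and lower in visceral endoderm was 1189 and 723, and 62.2% of calls were higher. It was 433 and 127 with a pseudocount of 10 RPM (77.3% higher), 2490 and 1782 with a difference of at least 1, and 307 and 107 with a difference of at least 4 (74.2% higher). With a class mean of at least 4, 413 genes were lower. The alternatives that left both counts within 1.5 times were the log2 of the mean RPM, the median over cells, no filter, quantile normalization, thinning to the shallowest cell, leaving out cell 1 and classes from 8 other genes. Of these, no filter and the 8 other genes could not change the counts. A difference of at least 2 needs a level of at least 2, and the 8 genes gave the same classes. Quantile normalization moved the median difference of considered genes to -0.16.

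Of 2 splits chosen after seeing the data, tubes 66 to 76 of the titles gave 1273 genes lower and 49.98% of calls higher, with 1307 genes fully above and 1131 fully below, and tubes 52 to 65 gave 818 fully above and 315 fully below; fewer cells make separation easier. Without visceral endoderm cell 1, 398 genes were fully below. With a difference of at least 1 at E6.5, the same-direction counts were 661 and 404. The median of the extraembryonic ectoderm list turned to -0.33 with the log2 of the mean RPM and to -0.44 with no filter. Among 196 called genes of the text's lists, 0 changed sign under any of 11 alternatives. These genes were chosen for a difference of at least 2 in the same cells, which makes a change of sign unlikely. No filter, the stricter class mean filter and the classes from other genes could not change the difference of a gene. A pseudocount of 10 RPM moved 99 of the 196 genes by more than their spread over cells. No paired analysis was possible because no test was run and the cell numbers pair nothing. The planned reading of promoter motifs was not run, since no promoter sequences were used here. Depth limits genes near 1 RPM, which rest on few reads.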

Other observations

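Imprinted genes, grouped here after their values were seen, stood on both sides. The maternally expressed H19 had 161 to 1414 RPM (median 462) in visceral endoderm cells and 0 to 190.00 RPM (median 10.9) in epiblast cells, and the neighbouring Igf2, expressed from the paternal copy, was higher in the same class, as was Igf2r (2.43). Snurf and Cdkn1c were lower in visceral endoderm. Mest, chosen for its spread after its values were seen, had 0 to 563 RPM (median 81.4) in the 9 visceral endoderm cells and 0.578 to 152 RPM (median 54.8) in the 16 epiblast cells. At E6.5 it had 1291 to 3122 RPM in 5 visceral endoderm cells and 5.39 to 558 RPM in 19 epiblast cells. Grb10, chosen in the same way, had 2.26 to 452 RPM (median 80.8) in the visceral endoderm cells of E5.5.

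Xist was low in the cells of lower tube number. The tube numbers run from 52 to 76 under 1 title code with no gap, and the cut after tube 65 was chosen after seeing the data, so the values on either side are a description of that choice. In tubes 52 to 65 it was 0 to 12.4 RPM in 6 visceral endoderm cells and 0 to 13.6 RPM in 8 epiblast cells. In tubes 66 to 76 it was 88.1 to 149 RPM in 3 visceral endoderm cells and 0.631 to 615 RPM in 8 epiblast cells, with 1 of those 8 at or under 10 RPM. The listed Y-linked genes had no values under their symbols or Entrez IDs, so none could be read here.

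Of all genes called at E5.5, 17 were called in the opposite direction at E6.5, among them the transcription factor Ovol2 (-2.47 at E5.5 and 2.71 at E6.5) and the amino acid transporter Slc7a6 (3.71 at E5.5 and -3.05 at E6.5), both named after their values were seen.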
